A study of Bombyx mori with 4 samples.

Results

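The genes described here encode proteins that splice or bind RNA, and were measured in the larval testis of the silkworm Bombyx mori. They were chosen by their descriptions in a table of human homologs of the array's probes. A description had to speak of splicing, ribonucleoproteins, RNA binding, DEAD box proteins or the Y box, and those of mitochondrial, translation, kinase or poly(A) binding proteins were left out. The rule used no measured value and found 23 of the 839 gene symbols named in the 1999 rows of the table used here, which holds further rows that were not used. Each gene goes by the symbol of its human homolog. The 23 genes were represented by 50 probes from 26 expressed sequence tags (ESTs), the cDNA sequences from which the array was designed.

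The samples were testis RNA taken on day 3 of the fifth larval instar, and each was labeled in 1 color (Cy3) on an array of its own, with 2 arrays of the op mutant and 2 of the wild type. Both genotypes belong to strain o751 and were reared on mulberry leaves. The op mutant is a spontaneous mutant with a translucent larval skin whose causative gene is not given in the sources used here. The comparison asked which transcripts of the testis differ between op and wild type. In whole testis, fewer cells of a type and less RNA per cell cannot be told apart.

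Splicing removes introns from nascent transcripts and is carried out by the spliceosome, which assembles from small nuclear ribonucleoproteins (snRNPs), each made of an RNA and its proteins. SR proteins and heterogeneous nuclear ribonucleoproteins (hnRNPs) bind the transcript and influence which exons are joined. DEAD box helicases remodel RNA and RNA-protein complexes in splicing, export, translation and ribosome assembly. The testis is known in many animals for extensive alternative splicing and for storing mRNA in germ cells.

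Each signal is the log2 of the processed signal of a spot minus the log2 of the 75th percentile of its array, averaged over the probes of a gene. It is called the normalized signal, and it was not compared between genes, apart from sums over marker genes. Differences are op minus wild type on this log2 scale, with the standard error of limma in parentheses. To be tested, a probe had to stand well above background on all arrays of 1 genotype or the other, as 47 of the 50 probes did, so that every one of the 23 genes was tested. On op replicates 1 and 2, 46 and 49 of the 50 probes were well above background, and on wild type replicates 1 and 2, 50 and 47 were. Over all probes, between 67.8% and 72.3% were well above background on an array, with 75th percentiles of 503.8 to 640.4.

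None of the 23 genes passed the test between op and wild type. By limma, at a threshold of 0.05 on the p adjusted over all features (Benjamini-Hochberg), 0 of 23 genes were called, where 0.340% of the 23805 genes and unnamed ESTs tested were (81 features, 37 higher and 44 lower in op). On single probes, 0 of 47 were called, where 0.316% of all 30371 probes tested were. At an unadjusted p under 0.05 there were 3 of 23 genes, AUH, NOP58 and DDX3Y, which is 13.0% of them, beside 18.1% of all features. The methods' t-test gave 4 of 23 at that unadjusted threshold (the same 3 and RBM4B), or 17.4% beside 13.6% of all features, and 0 after Benjamini-Hochberg adjustment. The adjusted p of the 23 genes ran from 0.162 to 0.992 in limma. A p that misses the threshold does not show that the levels were equal, so the interval of each difference is used below.

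The differences were small. Their median over the 23 genes was 0.10 on the log2 scale, beside 0.04 over all features, and the middle 50% of them lay between -0.06 and 0.24, beside -0.22 and 0.29 over all features. The median absolute difference was 0.18 in the 23 genes and 0.26 over all features. An absolute difference over 0.5 was found in 2 of 23 genes (8.70%), AUH and NOP58, and in 23.7% of all features. For 19 of 23 genes (82.6%) the 95% interval of the difference lay within 2-fold in both directions, as it did for 67.4% of all features. Among the other 4 were SNRNP27, NOP58 and AUH. The 2 sets are not alike in probes per feature, with 47 tested probes for the 23 genes and 30371 for all 23805 features. Averaging over more probes can narrow differences, and its part in these comparisons was not tested.

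The difference was above 0 in 15 of 23 genes, and in 54.1% of all features. Both op arrays lay above both wild-type arrays in 9 of 23 genes (39.1%), beside 29.4% of all features, and below both in 2 of 23 (8.70%), DDX3Y and TARBP2, beside 24.0%. With 2 arrays per genotype, the smallest p that an exact permutation test can give is 0.333, so that the position of the arrays carries no test. The count of differences above 0 moves with the scaling of the arrays, since it was 12 of 23 when each array was shifted to its median. That shift also took the median over all features from 0.04 to -0.06. The positions of the arrays were not counted again under it.

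**Figure D1:**
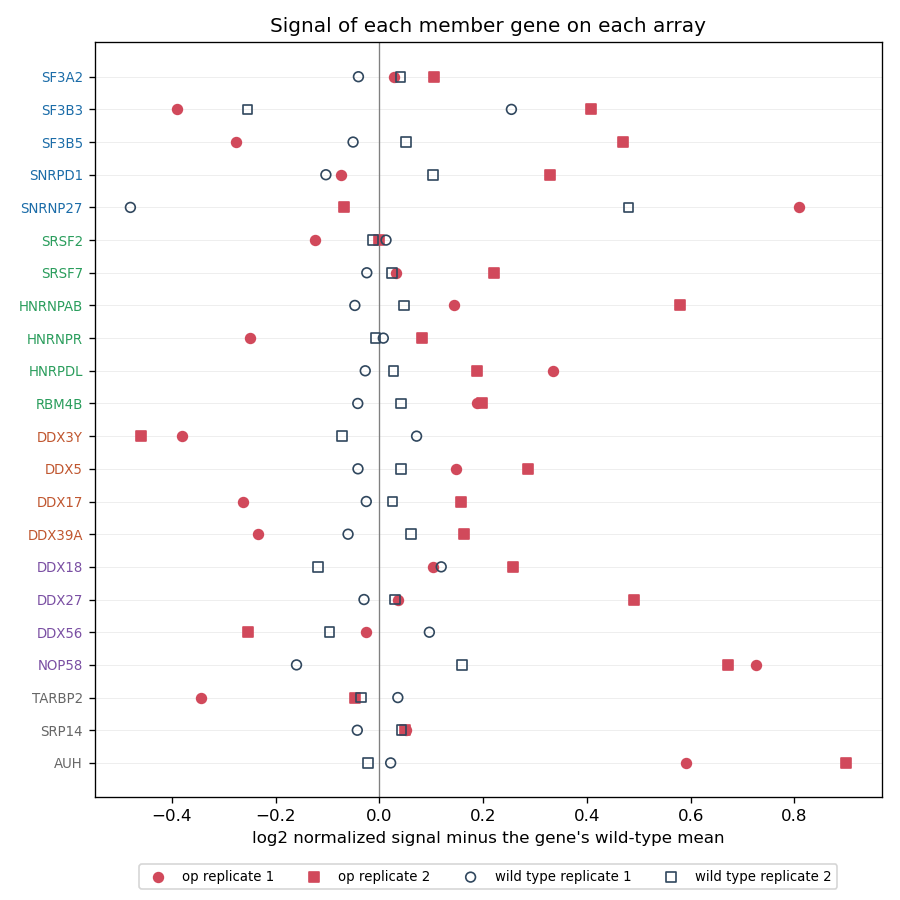
Normalized signal of 22 of the 23 genes on each array, minus the gene's own wild-type mean (x axis, log2). Filled red symbols are op arrays and open symbols are wild-type arrays, circles are replicate 1 and squares are replicate 2, and the color of a gene's name gives its role. The 2 op arrays of SF3B5 lie on either side of its wild-type arrays, and those of AUH and NOP58 both lie to their right.

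The core of the spliceosome was represented by 5 genes. All 5 fitted differences were above 0, from 0.008 to 0.37, and none passed the test (adjusted p 0.691 to 0.992, limma). SF3A2, SF3B3 and SF3B5 encode subunits of the U2 snRNP, which recognizes the branch point of the intron. SF3A2 had normalized signals of 0.86 and 0.94 in op against 0.79 and 0.87 in wild type, a difference of 0.07 (SE 0.15, n = 2 and 2) with a 95% interval from -0.34 to 0.47. Its op and wild-type arrays overlapped. SF3B5 had 2.33 and 3.08 in op against 2.56 and 2.66 in wild type. The 2 op arrays of SF3B5 thus lay below and above the wild-type arrays, 0.75 apart, and the difference of 0.10 had an SE of 0.29. SF3B3 read -4.85 and -4.05 in op against -4.21 and -4.71 in wild type, a difference of 0.008 (SE 0.35). This mean hides its probes, whose starts lie 40 bases apart if the number in a probe's name is its position on the EST, as is assumed below. One probe of SF3B3 differed by -0.31 and the other by 0.33, and both were dim, with processed signals from 11.1 to 52.9. The dimmer was well above background on 3 of 4 arrays. Keeping only probes well above background on all arrays left the other probe, with its difference of 0.33 (adjusted p 0.645, limma).

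SNRPD1 is one of the Sm proteins that form a ring on the RNA of spliceosomal snRNPs. It read -1.33 and -0.92 in op against -1.36 and -1.15 in wild type, a difference of 0.13 (SE 0.21), and the genotypes overlapped. SNRNP27, a protein of the U4/U6.U5 tri-snRNP in human, had the widest spread of the 5. It read -1.98 and -2.85 in op against -3.26 and -2.30 in wild type. The replicates thus differed by 0.88 in op and by 0.96 in wild type, in opposite order. Its difference of 0.37 (SE 0.45) had a 95% interval from -0.82 to 1.56, which holds a 2-fold difference. The sign of 4 of these 5 differences, those of SF3B3, SF3B5, SNRPD1 and SNRNP27, changed when 1 array was left out. That of SF3A2 and SF3B3 changed when the arrays were shifted to their medians.

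The splicing regulators were 6 genes, of which 4 had a difference above 0 and 2 below. The range was -0.08 to 0.36, and none passed the test (adjusted p 0.426 to 0.850, limma). SRSF2 and SRSF7 are SR proteins, which in human bind exons and promote their inclusion. SRSF2 read 2.24 and 2.37 in op against 2.38 and 2.35 in wild type, a difference of -0.06 (SE 0.15) measured by 1 of its 2 probes. The other was well above background on 1 array of each genotype and was not tested. Wild-type arrays of SRSF2 differed by 0.03, and op replicate 2 lay between them.

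SRSF7 was the homolog of 3 ESTs, with 2 probes each, and its average over them differed by 0.13 (SE 0.16). The ESTs did not read alike. EST Ka01360 read -0.64 and -0.47 in op against -0.92 and -0.86 in wild type, a difference of 0.33 (SE 0.16, adjusted p 0.356 in limma over features with 1 EST each). Its genotypes did not overlap, and its probes, whose starts lie 599 bases apart, differed by 0.42 and 0.24. EST Ka01669 differed by 0.07 (SE 0.17) and EST Ka01888 by -0.03 (SE 0.17), and in both the genotypes overlapped. Whether the 3 ESTs are 1 silkworm gene or several genes with the same nearest human homolog cannot be told from the names, and the differences between the ESTs were not tested.

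HNRNPAB, HNRNPR and HNRPDL are hnRNPs, which coat nascent transcripts. HNRNPAB read -1.42 and -0.98 in op against -1.61 and -1.51 in wild type, a difference of 0.36 (SE 0.21) with a 95% interval from -0.19 to 0.91. Both its op arrays lay above its wild-type arrays, and they were 0.44 apart. It was tested by 1 of its 2 probes. HNRPDL read -0.69 and -0.83 in op against -1.05 and -0.99 in wild type, a difference of 0.26 (SE 0.16), with its probes at 0.22 and 0.31. HNRNPR read 0.81 and 1.14 in op against 1.07 and 1.05 in wild type, a difference of -0.08 (SE 0.18). The wild-type arrays of HNRNPR lay between its op arrays. RBM4B, a homolog of the RNA-binding proteins that regulate alternative exons in human, had op arrays only 0.01 apart. It read 3.68 and 3.69 in op against 3.45 and 3.53 in wild type, a difference of 0.19 (SE 0.15). Its probes differed by 0.18 and 0.20, and the interval ran from -0.21 to 0.59.

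**Figure D2:**
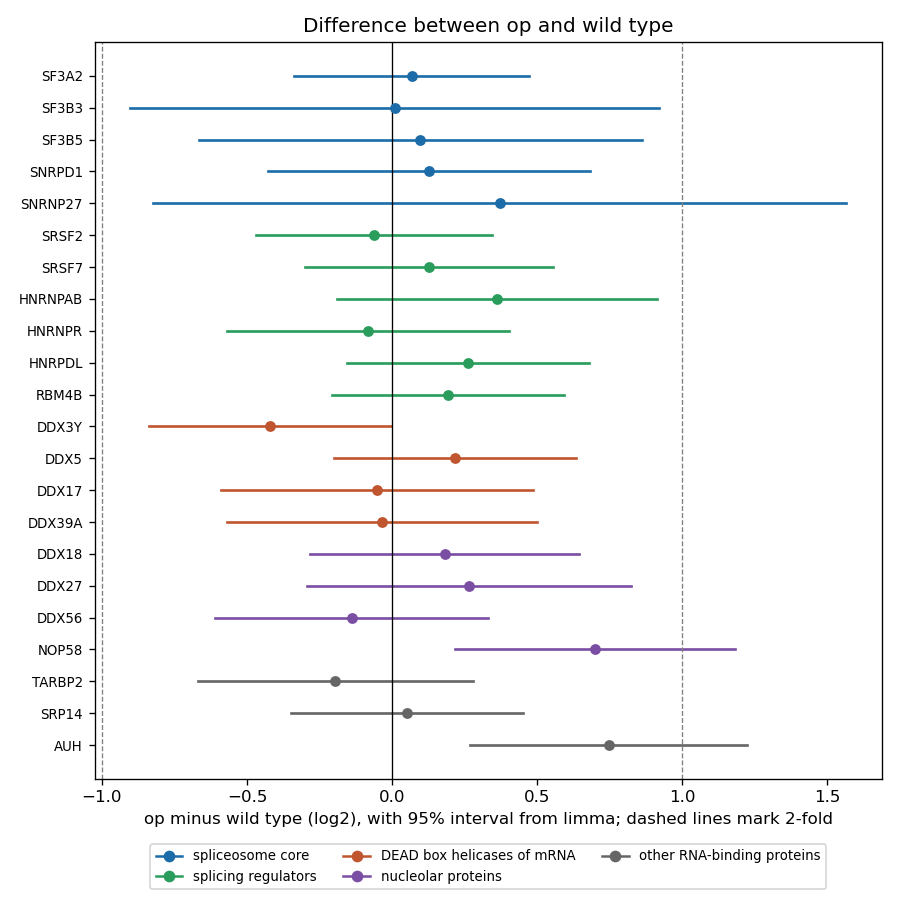
Difference between op and wild type of 22 of the 23 genes (x axis, log2), with its 95% interval from limma and colored by role. Dashed lines mark 2-fold, and the intervals of SNRNP27, NOP58 and AUH reach past one of them.

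The DEAD box helicases that act on mRNA were 4 genes, 1 with a difference above 0 and 3 below, and none passed the test (adjusted p 0.273 to 0.939, limma). The homolog named DDX3Y had the lowest difference of the 23 genes. Human DDX3Y is the Y-linked copy of a helicase that acts in translation, and the name says nothing of the chromosome in silkworm. It read -0.16 and -0.24 in op against 0.29 and 0.15 in wild type, and the genotypes did not overlap. The difference was -0.42 (SE 0.16), or 0.747 of the wild-type level, with a 95% interval of this ratio from 0.559 to 0.998, at an unadjusted p of 0.0488 and an adjusted p of 0.273. It rested on 1 probe, since the other was well above background on 1 of 4 arrays.

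DDX5 and DDX17 are related helicases that act in splicing and in the processing of microRNA precursors in mammals. DDX5 read 1.48 and 1.62 in op against 1.29 and 1.37 in wild type, a difference of 0.22 (SE 0.16). Both its op arrays lay above its wild-type arrays, and its probes, with starts 696 bases apart, differed by 0.29 and 0.14. DDX17 was the homolog of 2 ESTs and differed by -0.05 (SE 0.20) in their average. EST Ka00717 differed by -0.10 (SE 0.27) and EST Ka01288 by -0.007 (SE 0.17). DDX39A, a helicase of mRNA export, read 3.05 and 3.45 in op against 3.22 and 3.34 in wild type, a difference of -0.04 (SE 0.20). In DDX39A and in the average of DDX17, op replicate 1 lay below both wild-type arrays and op replicate 2 above both. Of the DDX17 ESTs only Ka00717 had this order. EST Ka01288 read 4.37 and 4.53 in op, between its wild-type arrays at 4.36 and 4.56, and its probes differed by -0.09 and 0.08.

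The nucleolar proteins were 4 genes, 3 with a difference above 0 and 1 below, and none passed the test (adjusted p 0.181 to 0.703, limma). NOP58 is a core protein of the box C/D small nucleolar RNPs, which guide the methylation of ribosomal RNA. It read -3.54 and -3.59 in op against -4.43 and -4.11 in wild type, and the genotypes did not overlap. The difference of 0.70 (SE 0.18) was a ratio of 1.62 with a 95% interval from 1.16 to 2.27, at an unadjusted p of 0.0145 and an adjusted p of 0.181. Its probes differed by 0.74 and 0.65, but they start 20 bases apart on the EST and so largely measure the same stretch. They were dim, with processed signals from 15.9 to 28.4 for one and from 55.9 to 98.8 for the other, where the lowest signal well above background was 8.12 to 10.8 over the arrays. With the normexp background correction, which adds an offset of 50, the difference was 0.25.

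DDX18, DDX27 and DDX56 are DEAD box helicases that act in ribosome assembly. DDX27 read 1.02 and 1.47 in op against 0.95 and 1.01 in wild type, a difference of 0.26 (SE 0.21). Its op replicate 1 lay close to the wild-type arrays, and op replicate 2 stood above them. DDX18 read -0.70 and -0.54 in op against -0.68 and -0.92 in wild type, a difference of 0.18 (SE 0.18). DDX56 read 2.61 and 2.38 in op against 2.73 and 2.54 in wild type, a difference of -0.14 (SE 0.18), and its probes gave the same value to 2 decimals. The arrays of the genotypes overlapped in both DDX18 and DDX56.

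The other RNA-binding proteins were 4 genes, 2 with a difference above 0 and 2 below, and none passed the test (adjusted p 0.162 to 0.879, limma). AUH had the highest difference of the 23 genes. In human it binds AU-rich RNA and is also an enoyl-CoA hydratase of leucine breakdown in mitochondria. It read 1.03 and 1.33 in op against 0.46 and 0.41 in wild type, so that the lower op array stood 0.57 above the higher wild-type array. The difference of 0.75 (SE 0.18) was a ratio of 1.68 with a 95% interval from 1.21 to 2.33, at an unadjusted p of 0.0108 and an adjusted p of 0.162. Its probes, whose starts lie 71 bases apart, differed by 0.77 and 0.72. Without op replicate 1 the difference of AUH was 0.90 at an adjusted p of 0.0386 in limma, the lone op array being assumed to vary like the wild-type arrays. In that fit 1 of 23 genes (4.35%) was called, where 9.20% of all features were. No other limma fit that was run called any of the 23, and without either wild-type array the adjusted p of AUH was 0.707 or higher.

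TARBP2, whose human homolog is a partner of Dicer in microRNA processing, read -1.16 and -0.86 in op against -0.78 and -0.85 in wild type, a difference of -0.20 (SE 0.18). Its op replicate 2 lay 0.01 below the lower wild-type array. SRP14, a protein of the signal recognition particle, read 3.39 on both op arrays and 3.30 and 3.38 in wild type, a difference of 0.05 (SE 0.15), which went to -0.04 when the arrays were shifted to their medians.

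Replicates stood further apart in op than in wild type. The median gap between replicates of the 23 genes was 0.30 between the op arrays and 0.09 between the wild-type arrays. The op gap was the wider in 16 of 23 genes (69.6%), close to the 72.4% of all features. It was over 0.5 in 4 genes in op, among them SF3B3, SF3B5 and SNRNP27, and in 2 in wild type (SF3B3 and SNRNP27). Op replicate 2 read above op replicate 1 in 17 of 23 genes (73.9%), where it did in 47.3% of all features. The median difference over the genes was 0.20 without op replicate 1 and 0.03 without op replicate 2. Labels do not say whether the 2 op samples came from different larvae, and whether the op arrays differ by animal or by handling was not tested.

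Probes of 1 EST mostly read alike. In 18 of 21 pairs with both probes tested, the differences had the same sign, and the median gap between the differences was 0.09. The only gap over 0.5 was the 0.64 of SF3B3. In 10 of the 21 pairs the starts lie under 60 bases apart, which is the length of a probe, so that they share sequence and are no independent measures. Over the 47 tested probes, 30 differences were above 0 and 17 below, from -0.42 to 0.77, and 6 (12.8%) had an unadjusted p under 0.05 in limma, beside 18.7% of all probes tested.

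**Figure D3:**
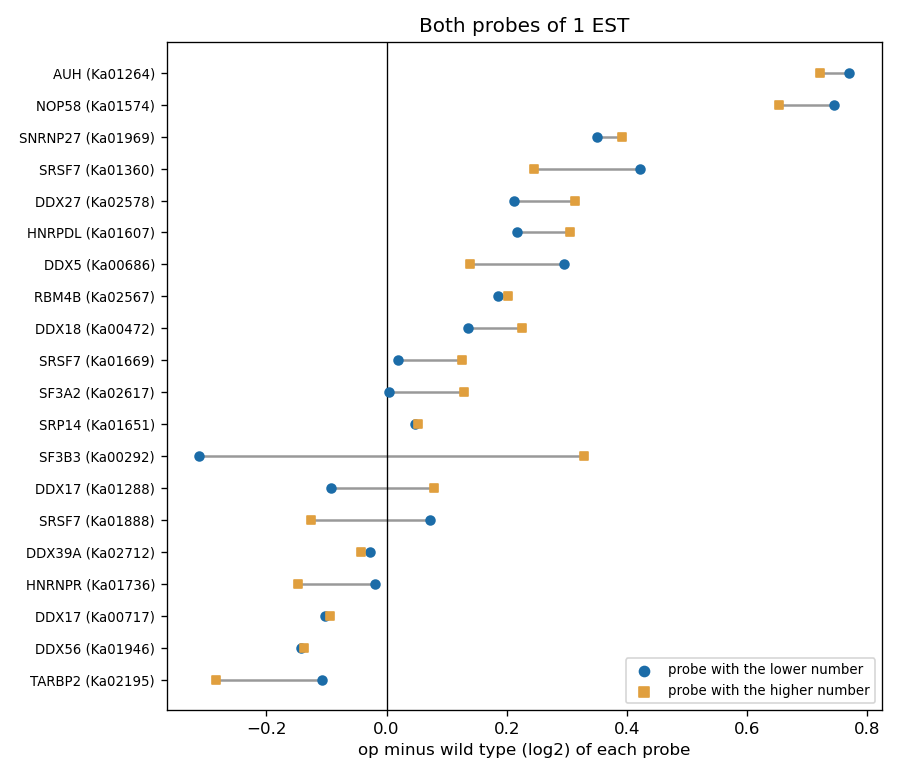
Difference between op and wild type (x axis, log2) of both probes of each of 20 of the 21 ESTs, ordered by their mean. Circles are the probe with the lower number in its name and squares that with the higher, and the widest gap, 0.64, is that of SF3B3.

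Other genes of RNA processing named in the same rows were set beside the 23. Of 46 listed genes, 45 were tested and 0 were called by limma after adjustment, beside 0.340% of all features. At an unadjusted p under 0.05 in limma there were 5 of the 45, beside 18.1% of all features. The differences of the 45 genes were above 0 in 22 and below in 23, with a median of -0.002 and a median absolute difference of 0.14. Other spliceosome proteins were 8 higher and 7 lower, with a median of 0.004. The lowest of them was AQR, a helicase of the intron-binding complex, which read -0.70 and -0.32 in op and 0.68 on both wild-type arrays. Its difference of -1.20 (SE 0.20) had an adjusted p of 0.103. The highest was SNW1 at 0.27 (adjusted p 0.427).

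Ribosome biogenesis proteins were 6 higher and 7 lower, with a median of -0.006, from NOB1 at -0.21 to NOLC1 at 0.50 (adjusted p 0.250). Proteins of RNA 3-prime end formation and decay were 2 higher and 5 lower, with a median of -0.23. Among them EXOSC7, a subunit of the RNA exosome, had the lowest difference at -1.35, but with an SE of 0.96, and CNOT1 had the highest at 0.29. Other RNA-binding proteins were 5 higher and 3 lower, from ELAVL2 at -0.08 to HDLBP at 0.55 (adjusted p 0.205). The arginine methyltransferases PRMT1 and PRMT5, which modify RNA-binding proteins, differed by -0.08 and 0.11.

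Markers of the tissue and of neighboring tissues were read in the same way, and 0 passed the test. They were chosen by human homology alone, and the tissue in which each is expressed in silkworm was not tested. The germ line markers NANOS3 and PIWIL4 were detected on every array and differed by -0.04 and -0.32, with summed levels of 2.24 and 2.30 in op against 2.83 and 2.72 in wild type, relative to the 75th percentile. Of 4 muscle markers, TNNT3, TPM2 and MYL6 differed by 1.78, 2.25 and 2.49 (adjusted p 0.120 to 0.222) and MYH11 by -0.16. Summed levels of the muscle markers were 4.03 and 5.51 in op against 0.97 and 2.04 in wild type. The genotypes did not overlap in this sum, nor in the sums of the other marker lists given here. Taken singly, however, NANOS3, MYH11, LAMA4 and CELA2A did overlap. Most of each germ line sum was PIWIL4 and most of each gut sum was PNLIP, so these sums do not speak for their lists as a whole. Among all single features, both op arrays lay above both wild-type arrays in 29.4% and below both in 24.0%. Of 4 basement membrane markers all were above 0, with NID1 at 3.09 (adjusted p 0.0847 in limma), COL4A5 at 1.65 (adjusted p 0.0843), COL4A6 at 1.16 and LAMA4 at 0.08. Their summed levels were 2.34 and 2.49 in op against 2.10 and 1.84 in wild type, and most of each sum was LAMA4. Of 4 gut digestive enzymes 3 were tested, CELA2A at 0.17, PNLIP at -0.85 and CPB1 at -1.13, with summed levels of 0.54 and 0.35 in op against 0.62 and 0.73 in wild type. Some of these were dim. In wild type, 1 of the 2 probes of NID1 was not well above background on any array, and its other probe, measured on all 4 arrays, differed by 3.08. Both CPB1 probes were well above background on 1 of the 2 op arrays, so its difference has no firm size, and 2 of the 4 tested CELA2A probes were not well above background on 1 array each. The part of these tissues in the differences of AUH, NOP58 and DDX3Y was not tested.

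**Figure D4:**
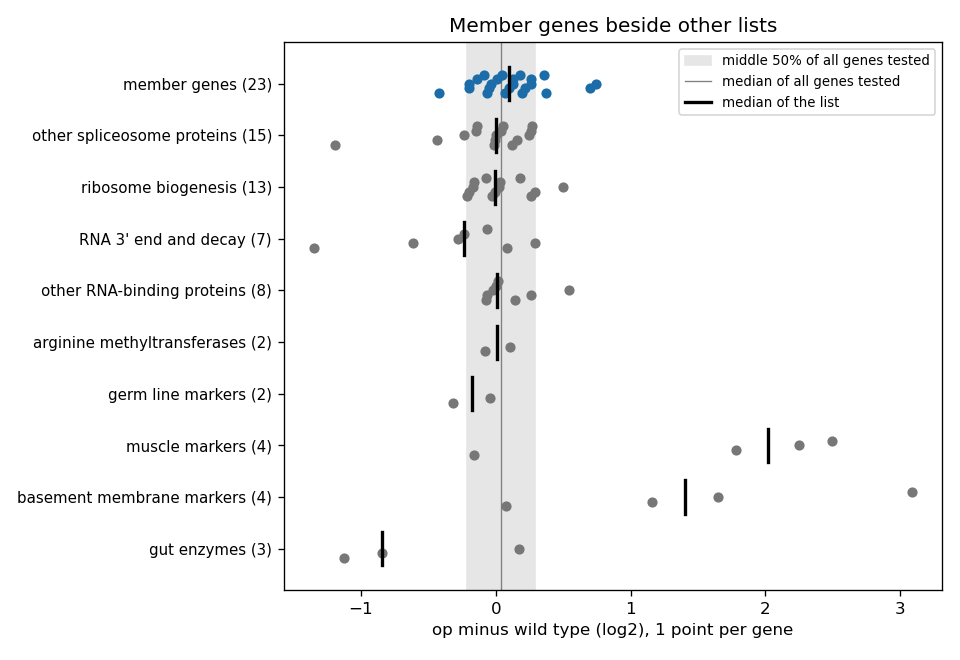
Difference between op and wild type (x axis, log2) of each gene, for the 23 genes, the other lists of RNA processing and the tissue markers, with the number of genes tested in parentheses. Black bars are the medians of the lists and the gray band holds the middle 50% of all features, from -0.22 to 0.29. In all, 3 of the muscle markers and 3 of the basement membrane markers lie to the right of all 23 genes.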

How the data were processed

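Cy3-labeled testis RNA was measured on 4 arrays, 2 of each genotype. Of both genotypes the methods state n = 5, and for the screening slide 2 samples, so the p-values measure only the spread between these samples, which may be technical. The authors read the scan with Feature Extraction 9.5. What they deposited per spot includes an intensity with the background subtracted (the processed signal, used here), the median intensity of the spot and of its background, and flags for background, saturation and outliers. The deposited normalized values, made by the authors with GeneSpring, are on the log2 scale, and their differences between genotypes matched those computed here.

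Here the log2 processed signal minus that of the array's 75th percentile was averaged per gene symbol or, with no symbol, per EST. Controls and outlier spots were left out, and 0 spots were saturated. With 4 arrays, their number limits the precision. The two-sided test was limma's (version 3.58.1, lmFit and eBayes, under R 4.3.3), and p-values were adjusted after Benjamini-Hochberg, with a threshold of 0.05. The script was tested on simulated data. All 23 members were named by rule, and the members and lists were chosen with earlier results of these data known. Every array value was to be given for members past 0.5 without overlap and for members whose probes differ in direction by over 0.5, and the values of the others were added after they were seen. The normexp correction used the median spot signal, where the design assumed the mean. Alternatives were background correction, scaling, filters, the methods' t-test, a replicate block, a trend and robust fit, averages per EST and leaving out each array. The result of 1 of the 23 genes is not reported here on its own, and it stays in the counts and medians.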

Additional observations from a re-analysis of the deposited data

How the results depend on the processing

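No gene of the 23 was called under any of the scalings, background corrections, filters and limma fits with all 4 arrays, and leaving out 1 array gave 0 to 1 gene (AUH, without op replicate 1) and 0 to 2 of their probes. The methods' t-test gave 4 genes and 6 probes of them before adjustment and 0 after. Of 352 differences of single genes under the alternatives, 329 kept their direction and side of the threshold, and 18 changed sign. The trend and robust fit, the methods' t-test and the replicate block use the same means, so no sign could change under them. With the deposited values or the outlier spots kept, the differences hardly moved either. The 329 are therefore no measure of how stable the differences are. The sign changed under quantile normalization for SF3B3 (-0.14), under a shift to the array median for SF3A2 (-0.028), SF3B3 (-0.086) and SRP14 (-0.044), with no scaling for SF3A2 (-0.029), SF3B3 (-0.088) and SRP14 (-0.046), and with no filter for SRSF2 (0.10), whose dim probe then enters. The median over all features was 0.04 and went to -0.06 both after the shift and with no scaling, and the median over the 23 genes to 0.002 and 0.0003. Leaving out 1 array changed signs over the ranges -0.39 to 0.41 (SF3B3), -0.28 to 0.47 (SF3B5), -0.074 to 0.33 (SNRPD1), -0.11 to 0.85 (SNRNP27), -0.25 to 0.082 (HNRNPR), -0.26 to 0.16 (DDX17) and -0.23 to 0.16 (DDX39A). AUH ran from 0.59 to 0.90 over all alternatives, NOP58 from 0.25 to 0.86 and DDX3Y from -0.52 to -0.35.

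The count over all features, 81 genes and 96 probes, was 338 and 414 with normexp, 19 and 15 with quantile normalization, 34 and 45 with no scaling, 44 and 54 for probes above background on all arrays, 0 and 0 with no filter, and 356 and 463 with a trend and robust fit. The methods' t-test gave 3248 and 4213 before adjustment and 0 and 0 after. Leaving out 1 array gave 63 to 2328 genes and 33 to 2413 probes, with 2189 genes without op replicate 1, 2328 without op replicate 2, 63 without wild type replicate 1 and 100 without wild type replicate 2. The share of called genes that were higher in op was 45.7%, against 74.6% (normexp), 26.3% (quantile) and 26.5% (no scaling). The cause of these shifts was not tested. In the fits without 1 op array, the spread between replicates came from the wild-type arrays alone. Over the probes tested, replicate differences had an SD of 0.69 in op and 0.36 in wild type. Labels do not say whether the replicate numbers pair the arrays, and the deviations of same-numbered arrays had a correlation of -0.03 across genes. This single value cannot settle it. The fit with the replicate block gave 530 genes and 715 probes, of which 0 were among the 23 genes or their probes.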
